A study of Mus musculus with 26 samples.

Results

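The genes described here encode the TNF ligand superfamily and the TNF receptor superfamily, measured in mouse neurospheres (NSPs) differentiating into astrocytes with or without TNF. They were chosen by symbol. Taken were all probe sets with a single gene symbol that starts with Tnfsf or Tnfrsf, together with *Tnf*, *Lta*, *Ltb*, *Ltbr*, *Fas*, *Fasl*, *Cd40*, *Cd40lg*, *Cd27*, *Cd70*, *Eda*, *Edar*, *Eda2r* and *Ngfr*. This rule found 43 genes, 16 ligands and 27 receptors, each with 1 probe set, of 19938 genes with such a probe set and 35556 probe sets in all. *Tnfsf12* and *Tnfsf13* share a probe set with several symbols and fell outside the rule.

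The NSPs were grown from ventricular zone stem cells of C57BL/6J mouse embryos at embryonic day 14, and for differentiation, with or without TNF, they were plated on poly-ornithine in medium with fetal bovine serum. TNF at 50 ng/mL was given to cells measured on 3 arrays per time at 6, 24 and 48 hours and on 2 arrays at 72 hours, while untreated cells had 3 arrays per time at 0, 6, 24, 48 and 72 hours. The 26 Affymetrix arrays were deposited as log2 signals after RMA, a method that removes background, equalizes the signal distributions and combines the probes of each probe set. The series calls its replicates biological, and precision is limited by the few arrays per group.

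Ligands of the TNF superfamily are mostly membrane proteins of immune cells that act as trimers, and some are released by proteases. Their receptors fall into a group with a death domain, such as *Fas* and *Tnfrsf1a*, a group that binds TRAF adaptors directly, and decoy receptors without a working intracellular part. Through adaptors, kinases and ubiquitin enzymes, many of these receptors activate NF-κB, and the death receptors can start apoptosis through caspases.

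The 250 bases before an annotated start are printed for the 4 genes of the families that rose with TNF, as the proximal promoters of the genes whose signal changed. Sequences are from RefSeq (GRCm38.p6), in the direction of the gene, and capitals mark TATAAA on that strand. Windows were found for 34 of the 43 genes.
*Tnfsf18*, chr1:161494407-161494656, plus strand: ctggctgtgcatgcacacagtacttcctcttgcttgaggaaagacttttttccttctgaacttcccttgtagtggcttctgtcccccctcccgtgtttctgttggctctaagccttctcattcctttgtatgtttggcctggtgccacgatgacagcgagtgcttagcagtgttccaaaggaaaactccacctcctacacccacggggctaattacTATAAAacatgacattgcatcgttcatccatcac
*Eda2r*, chrX:97377210-97377459, minus strand: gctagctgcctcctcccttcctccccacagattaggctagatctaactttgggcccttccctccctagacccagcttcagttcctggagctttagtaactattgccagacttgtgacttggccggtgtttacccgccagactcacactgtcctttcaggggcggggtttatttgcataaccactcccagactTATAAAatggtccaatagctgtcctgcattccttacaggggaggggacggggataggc
*Fas*, chr19:34290409-34290658, plus strand: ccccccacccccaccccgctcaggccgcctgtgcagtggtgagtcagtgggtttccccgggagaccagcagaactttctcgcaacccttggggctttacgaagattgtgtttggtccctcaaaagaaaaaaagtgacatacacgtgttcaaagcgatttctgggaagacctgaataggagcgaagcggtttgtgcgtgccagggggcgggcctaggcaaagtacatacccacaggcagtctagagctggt
*Ngfr*, chr11:95587699-95587948, minus strand: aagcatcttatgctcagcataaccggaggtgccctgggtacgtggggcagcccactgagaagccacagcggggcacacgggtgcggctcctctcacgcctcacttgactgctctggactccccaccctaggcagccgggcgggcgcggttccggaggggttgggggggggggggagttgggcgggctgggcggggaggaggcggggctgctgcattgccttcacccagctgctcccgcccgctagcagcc
TATAAA lies at position −34 before the start of *Tnfsf18* and at −58 before that of *Eda2r*, and is not in the windows of *Fas* and *Ngfr*. Positions count from the annotated start used here. The annotated genes *Eda2r* (to 97377234) and *Fas* (from 34290647) reach into their printed windows. TATAAA was found in 5 of the 38 windows of these 34 genes, that of *Tnf* among them, and in 7.59% of the 32851 windows of all genes. The NF-κB consensus, searched on both strands, was in 0 of the 4 printed windows. It was in 4 of the 38 windows of the families, which belong to *Ltb*, *Tnfrsf8*, *Tnfrsf9* and *Tnfrsf25*, against 7.25% of all windows. A match or its lack describes these windows only.

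The 3 arrays of untreated cells at 0 hours differed most among themselves. An array's median absolute deviation from the mean of the others of its group was 0.205 to 0.341 log2 units there and 0.0975 to 0.222 in the other groups. At 0 hours, replicate 2 had the highest of the 3 signals for several receptors described below, and replicate 1 for 23 of the 24 dim genes of the families. Dim means a mean over all arrays below the 40th percentile of all probe sets (7.14), and 19 of the 43 genes were above it. All 8 astrocyte markers looked up were above this limit, and *Gfap* ran from 8.20 to 13.73 over the arrays. Of the 9 measured microglia or macrophage markers, 5 were dim (*Aif1*, *Itgam*, *Csf1r*, *P2ry12* and *Ptprc*). The others were above the limit, with means of 7.70 (*Cx3cr1*), 7.19 (*Tmem119*), 7.71 (*Trem2*) and 8.84 (*Cd68*). Of 6 lymphocyte markers, 5 were dim. In such bulk samples, fewer cells of a type and less RNA per cell cannot be told apart.

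The first question was which ligands and receptors changed when cells differentiated in the presence of TNF. The threshold for a call was a q-value of 0.05 from limma, adjusted over all probe sets. Fold changes (FC) are given on the log2 scale as TNF-treated over untreated cells, with the standard error (SE). The GITR ligand *Tnfsf18* was called higher at 24, 48 and 72 hours. The death receptor *Fas* and the neurotrophin receptor *Ngfr* were called higher at 24 hours, and the ectodysplasin A2 receptor *Eda2r* at 48 hours. A call at 24 or 48 hours alone is not a tested difference from the other times. At 6 hours, 0 of the 43 genes were called higher and 0 lower, while 0.312% of all probe sets were called higher and 0.0141% lower. These counts are from the fit without pairing. With the replicate number as a block, 2 genes were called higher at 6 hours, *Fas* and *Tnfrsf10b*. That block was a common effect of the number over all 26 arrays, also at times not taken as paired. With limma's unadjusted p under 0.05, 7 of the 43 were higher at 6 hours and 0 lower, beside 4.97% of all probe sets in either direction. At 24 hours, 3 were called higher and 0 lower (background 0.627% higher and 0.236% lower). At 48 hours, 2 were called higher and 0 lower (0.773% and 0.264%), and at 72 hours 1 was called higher and 0 lower (0.596% and 0.554%). With an unadjusted p under 0.05, 9 were higher and 0 lower at 24 hours, 6 and 2 at 48 hours, and 6 and 1 at 72 hours, beside 5.62%, 6.51% and 9.57% of all probe sets in either direction. The median log2 FC of the 43 genes was −0.03, 0.12, −0.04 and −0.04 at 6, 24, 48 and 72 hours, beside −0.04, 0.01, −0.02 and −0.02 for all probe sets. All TNF-treated arrays lay above all untreated ones for 4, 12, 8 and 9 of the 43 genes, and below for 1, 3, 3 and 9. Of all probe sets, 4.31%, 6.85%, 6.41% and 19.0% lay above in this way, and 4.24%, 7.31%, 5.76% and 22.0% below. The shares are largest at 72 hours, which has 2 TNF-treated arrays.

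**Figure D1:**
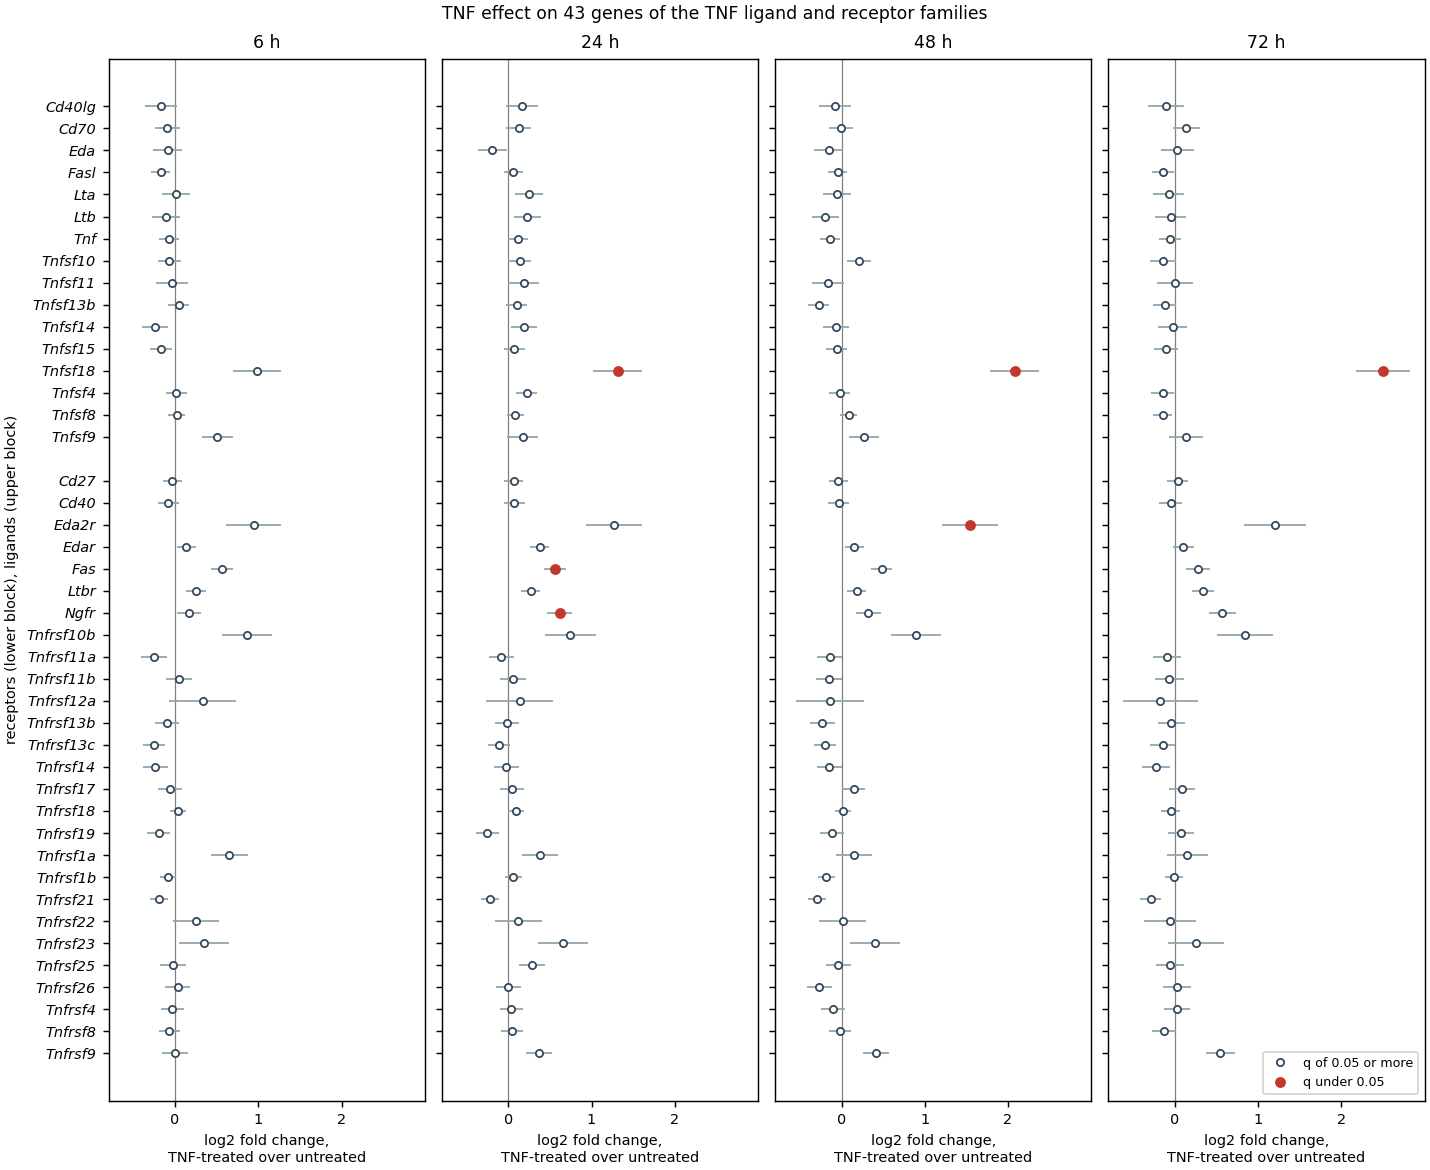
Log2 fold change (x axis, TNF-treated over untreated cells, bars are SE) of the 16 ligands (upper block) and 27 receptors (lower block) at 6, 24, 48 and 72 hours; filled points have a q-value under 0.05. Most genes lie near 0, and *Tnfsf18* lies at 0.99, 1.31, 2.08 and 2.50 at the 4 times.

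Among the ligands, *Tnfsf18*, which costimulates T cells through its receptor GITR, was the only one called. At 6 hours its log2 signal was 7.89, 7.07 and 7.29 in TNF-treated cells, against 6.87, 6.38 and 6.05 in untreated cells. At 24 hours it was 7.50, 7.81 and 8.09 in TNF-treated cells, against 6.51, 6.50 and 6.45 in untreated cells. All TNF-treated arrays lay above all untreated arrays of their time. The signal at 48 hours was 8.75, 8.62 and 8.94 in TNF-treated cells and 6.54, 6.87 and 6.66 in untreated cells. At 72 hours, TNF-treated cells had 9.45 and 9.18, and untreated cells 6.96, 6.82 and 6.67. Untreated signals stayed between 6.05 and 6.96 from 6 to 72 hours, and at 0 hours they were 6.39, 7.60 and 5.97. The log2 FC was 0.99 at 6 hours (SE 0.293, q = 0.355), which did not pass the test. It was 1.31 at 24 hours (SE 0.293, q = 0.0305), 2.08 at 48 hours (SE 0.293, q = 0.000255) and 2.50 at 72 hours (SE 0.327, q = 0.000146). The untreated means at these times (6.49, 6.69 and 6.82) lay below the limit for dim probe sets. Their distance from the background of the arrays was not measured. The differences are therefore those of the measured signals and not exact fold changes of the RNA. The call at 24 hours was lost when any 1 of its 6 arrays other than TNF replicate 1 was left out (q up to 0.163 without TNF replicate 3). At 48 and 72 hours the call held without any single array (q up to 0.00324 and 0.0121) but not without all arrays numbered 1, an alternative chosen after seeing the data (log2 FC 2.01, q = 0.072, and 2.43, q = 0.152).

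The TNF effect on *Tnfsf18* was larger at 72 hours than at 6 hours by 1.51 (SE 0.439) and at 48 hours than at 6 hours by 1.09 (SE 0.414), but neither difference passed limma's test over all probe sets (q = 0.603 and q = 1). At q-values under 0.05, 0 of the 43 genes were called for a difference between the TNF effect at 24, 48 or 72 hours and that at 6 hours, where 0.0253%, 0.104% and 0.124% of all probe sets were. With an unadjusted p under 0.05, 1, 1 and 2 of the 43 were higher and 0 lower, beside 2.66%, 2.88% and 2.95% of all probe sets in either direction, which is near the share among the 43. These 3 differences share the arrays of 6 hours.

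The receptor of this ligand, *Tnfrsf18* (GITR), had log2 FC values of 0.04, 0.09, 0.02 and −0.05 at 6, 24, 48 and 72 hours, each with an SE of 0.1 to 0.112 and overlapping groups. *Tnfsf4*, the OX40 ligand, lies beside *Tnfsf18* on chromosome 1 and was dim, with signals between 5.42 and 6.04 in all arrays. *Fasl*, the ligand of *Fas*, lies on the same stretch of chromosome 1 and was dim too, with log2 FC values of −0.17, 0.06, −0.05 and −0.14. Of the 4 genes *Tnfsf4*, *Tnfsf18*, *Fasl* and *Tnfrsf18*, only *Tnfsf18* was called with TNF.

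**Figure D2:**
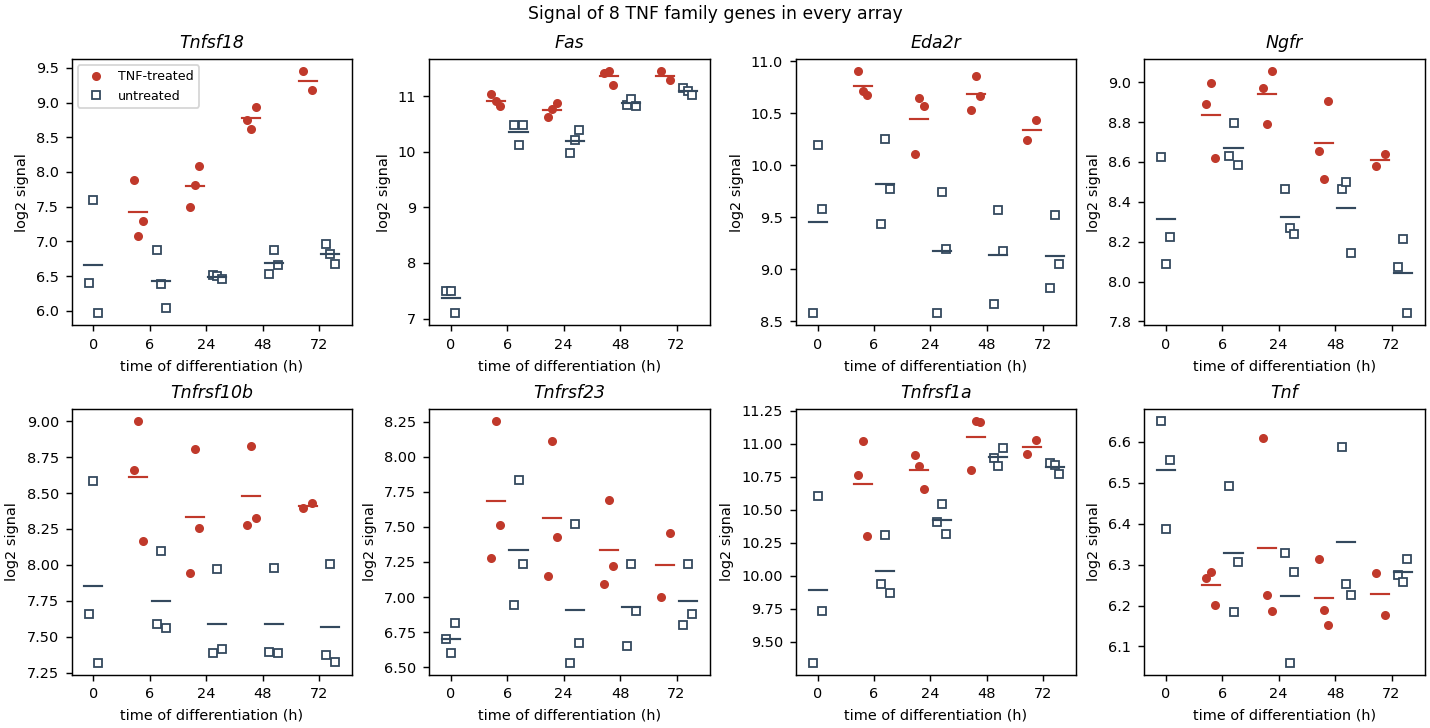
Log2 signal (y axis) of 8 genes in every array against the time of differentiation in hours (x axis), with TNF-treated arrays as filled circles to the left of untreated arrays (open squares); short lines are group means and only untreated cells were measured at 0 hours. *Tnfsf18* arrays separate at each of the 4 times, and those of *Tnf* overlap at each.

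*Fas*, the receptor of FasL and a starter of apoptosis, was higher in TNF-treated cells by 0.56 at 24 hours (SE 0.128, q = 0.0358). The signal at 24 hours was 10.63, 10.77 and 10.88 in TNF-treated cells, against 9.98, 10.21 and 10.40 in untreated cells. At 6 hours it was 11.04, 10.91 and 10.82 in TNF-treated cells, against 10.48, 10.12 and 10.48 in untreated cells. The groups did not overlap at either time, and the log2 FC at 6 hours was 0.57 (SE 0.128, q = 0.0642), not passing the test. Same-numbered arrays deviated together at 6 hours, and with the replicate number as a block over all arrays the 6 hours value passed (q = 0.0485). The values at 48 hours and 72 hours were 0.48 (q = 0.0838) and 0.28 (q = 0.563), again without overlap between the groups. At 72 hours, with 2 TNF-treated arrays, 19.0% of all probe sets lay apart in this direction. Leaving out any 1 array of 24 hours other than untreated replicate 3 ended that call (q up to 0.266 without untreated replicate 1), as did a fit of only the arrays compared (q = 0.131).

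*Eda2r* encodes XEDAR, which binds the A2 form of ectodysplasin. At 48 hours its signal was 10.53, 10.86 and 10.66 in TNF-treated cells, against 8.67, 9.57 and 9.18 in untreated cells. At 24 hours it was 10.11, 10.65 and 10.57 in TNF-treated cells, against 8.58, 9.74 and 9.20 in untreated cells. The untreated arrays spread more than the TNF-treated ones, with replicate 2 highest at each time, and the groups did not overlap at any of the 4 times. The log2 FC was 1.54 at 48 hours (SE 0.333, q = 0.0208), and 0.95 (q = 0.65), 1.27 (q = 0.0915) and 1.21 (q = 0.148) at 6, 24 and 72 hours. The call was lost without untreated replicate 1 (q = 0.186), untreated replicate 3 (q = 0.0794), TNF replicate 2 (q = 0.147) or TNF replicate 3 (q = 0.0766). The ligand *Eda* had values of −0.09, −0.20, −0.16 and 0.03, and *Edar*, which binds the A1 form, had 0.13, 0.38, 0.16 and 0.10. At 24 hours the value of *Edar* had q = 0.196.

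*Ngfr* (p75NTR), a receptor of neurotrophins and their precursors, had signals at 24 hours of 8.97, 8.79 and 9.06 in TNF-treated cells, against 8.46, 8.27 and 8.24 in untreated cells. The groups were apart, and the log2 FC was 0.62 (SE 0.146, q = 0.0474). The values at 6, 48 and 72 hours were 0.17 (q = 0.894), 0.32 (q = 0.623) and 0.57 (q = 0.111). At 72 hours the signals were 8.58 and 8.64 in TNF-treated cells, against 8.07, 8.21 and 7.84 in untreated cells, also without overlap. The 24 hours call was lost without any single one of its 6 arrays (q from 0.0764 to 0.254), with cyclic loess (q = 0.0601) and with an intensity trend (q = 0.0555).

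**Figure D3:**
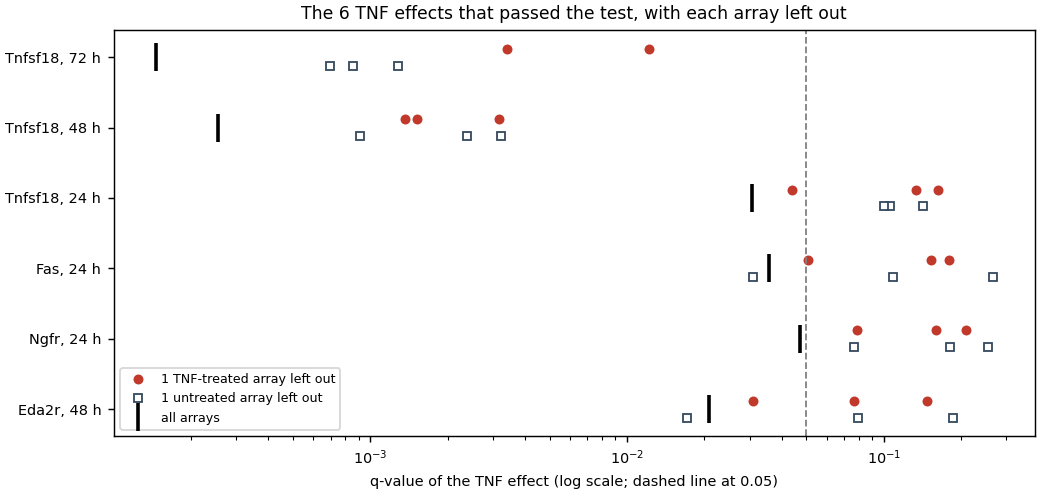
The q-value (x axis, log scale) of each of the 6 TNF effects that passed the test, with all arrays (black bar), with 1 TNF-treated array left out (filled circles) and with 1 untreated array left out (open squares); the dashed line is at 0.05. *Tnfsf18* at 48 and 72 hours stays left of the line in every case, while *Ngfr* at 24 hours crosses it in every case.

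*Tnfrsf10b*, the mouse death receptor of TRAIL, gave values of 0.86, 0.74, 0.89 and 0.84 at 6, 24, 48 and 72 hours (SE 0.303 to 0.339), with q-values of 0.64, 0.638, 0.297 and 0.35. At 6 hours the signal was 8.66, 9.0 and 8.17 in TNF-treated cells, against 7.59, 8.09 and 7.56 in untreated cells. Replicate 2 was the highest array of both groups, and the difference within a replicate number was 1.07, 0.91 and 0.61. With the replicate number as a block over all arrays the 6 hours value passed the test (q = 0.00443, SE 0.148). At 48 hours the differences within a replicate number were 0.88, 0.85 and 0.94. The block gave q = 0.00936, 0.00139 and 0.0198 at 24, 48 and 72 hours, where the number was not taken as pairing. Its ligand TRAIL (*Tnfsf10*) was dim, with values of −0.07, 0.14, 0.21 and −0.14. The decoy TRAIL receptors of the mouse, *Tnfrsf22* and *Tnfrsf23*, lie next to each other and to *Tnfrsf26* on chromosome 7. *Tnfrsf23* had values of 0.35, 0.66, 0.41 and 0.25 and *Tnfrsf22* had 0.25, 0.12, 0.01 and −0.05, none called without the block. With the block, *Tnfrsf23* passed the test at 24 hours (q = 0.0408). The 3 genes are close relatives, and how well the probes tell them apart was not tested.

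The receptors of TNF itself were not called with TNF at any time. *Tnfrsf1a* (TNFR1) had signals at 6 hours of 10.76, 11.02 and 10.30 in TNF-treated cells, against 9.94, 10.31 and 9.87 in untreated cells, with replicate 3 of the TNF-treated cells just below the highest untreated array. Its log2 FC was 0.65 at 6 hours (SE 0.221, q = 0.569), 0.38 at 24 hours (q = 1), 0.15 at 48 hours (q = 0.833) and 0.15 at 72 hours (q = 0.953). *Tnfrsf1b* (TNFR2) was dim and had −0.08, 0.06, −0.18 and −0.01, with 95% intervals of −0.29 to 0.12 at 6 hours and −0.24 to 0.22 at 72 hours. *Tnf* was dim as well, and its signals lay between 6.06 and 6.65 in every array. Its log2 FC was −0.08, 0.12, −0.14 and −0.05 at the 4 times, with overlapping groups and 95% intervals of −0.33 to 0.17 at 6 hours and −0.33 to 0.23 at 72 hours. *Lta* and *Ltb*, the lymphotoxins, were dim, with values from −0.07 to 0.25 and from −0.19 to 0.23. Their receptor *Ltbr*, an activator of the non-canonical NF-κB pathway, had 0.25, 0.27, 0.18 and 0.34 (SE 0.115 to 0.129). At 72 hours its signal was 9.47 and 9.48 in TNF-treated cells, against 9.23, 9.01 and 9.18 in untreated cells (q = 0.31).

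Of the pair 4-1BB (*Tnfrsf9*) and 4-1BB ligand (*Tnfsf9*), the receptor had values of −0.00, 0.37, 0.41 and 0.55 and the ligand 0.51, 0.17, 0.27 and 0.14, none called. At 72 hours the receptor's signal was 7.83 and 7.91 in TNF-treated cells, against 7.28, 7.42 and 7.26 in untreated cells (q = 0.17). The ligand's signal at 6 hours was 7.19, 7.94 and 7.05 in TNF-treated cells, against 6.71, 7.13 and 6.82 in untreated cells (q = 0.68). *Tnfrsf21* (death receptor 6) had −0.19, −0.22, −0.30 and −0.29, and its groups did not overlap at 24, 48 and 72 hours (q = 0.925, 0.383 and 0.386). The TWEAK receptor *Tnfrsf12a* had 0.33, 0.14, −0.14 and −0.17, with SE of 0.403 to 0.45.

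Astrocyte markers had lower means in TNF-treated arrays at each time. The mean log2 signal of the 8 was 10.85 to 10.99 in TNF-treated arrays and 11.09 to 11.24 in untreated arrays at 6 hours. At 72 hours it was 11.56 to 11.67 in TNF-treated arrays and 11.92 to 12.19 in untreated arrays. Only *Gja1*, 1 of the 8, was called lower with TNF, at 24 hours (log2 FC −1.10, q = 0.0235). Of the microglia or macrophage list, only *Cd68* was called, higher at 24 hours by 2.13 (q = 0.00949). The median log2 FC of that list was −0.13, 0.10, −0.10 and −0.11 at the 4 times, and its mean signal at 24 hours, *Cd68* included, was 6.98 to 7.16 in TNF-treated arrays and 6.73 to 6.88 in untreated arrays. The part of these markers in the TNF effects was not tested.

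A further list held 48 genes that act with these ligands and receptors, namely adaptors and effectors inside the cell, with the receptor relative *Relt* among them, NF-κB genes, and proteases and partners that release ligands or receptors at the membrane. Of these, 44 were measured and 0 are among the 43. Of 33 measured adaptors, kinases, ubiquitin enzymes and death effectors, 4 rose with TNF at 6 hours, 3 at 24 hours, 4 at 48 hours and 3 at 72 hours, and 2 fell at 72 hours. Of all probe sets, 0.312%, 0.627%, 0.773% and 0.596% rose at these times, and 0.554% fell at 72 hours. The median log2 FC of the 33 was 0.03, 0.07, 0.07 and 0.10. *Traf2*, the adaptor of both TNF receptors, *Tnfaip3* (A20) and *Tnip1*, which restrain NF-κB signaling, rose at all 4 times. At 72 hours their log2 FC was 1.10, 2.54 and 1.37. *Traf5* rose at 6 hours by 0.40 (q = 0.0471) and *Birc2*, a ubiquitin ligase of the receptor complex, at 48 hours by 0.87 (q = 0.00954). *Tab3* and the kinase gene *Map3k5* (ASK1) fell at 72 hours, with log2 FC of −0.67 and −0.70. Of 7 measured NF-κB subunits and inhibitors, 3 rose at 6 hours and 4 at each later time, namely *Relb*, *Nfkb2*, *Nfkbia* and, from 24 hours on, *Nfkbie*. The median log2 FC of the 7 was 0.43, 1.14, 1.33 and 1.45 at the 4 times. Of the 4 sheddases and their partners (*Adam10*, *Adam17*, *Rhbdf1*, *Rhbdf2*), 0 were called with TNF, and the medians of the 4 were −0.04, 0.03, 0.04 and −0.01.

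The second question was how the families changed as untreated NSPs differentiated. By the study's methods, NSPs were grown in medium with EGF, and the differentiation medium held serum and no listed EGF. Changes from 0 hours can thus not be told apart from effects of the new medium and of plating. Each later time was compared with 0 hours, so the 4 comparisons share the arrays of 0 hours, and they share the untreated arrays with the TNF effects. *Fas* and *Tnfrsf12a* were higher at each later time, *Tnfrsf1a* at 48 and 72 hours, and *Tnfrsf19* was lower at each. At 6 hours, 3 of the 43 were called higher and 2 lower, while 4.64% and 3.03% of all probe sets were. At 24 hours, 3 were higher and 2 lower (10.0% and 6.51%), at 48 hours 3 higher and 1 lower (8.99% and 6.97%), and at 72 hours 3 higher and 2 lower (12.6% and 10.2%).

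*Fas* moved most. Its signal in untreated cells was 7.49, 7.50 and 7.10 at 0 hours, 10.48, 10.12 and 10.48 at 6 hours, 9.98, 10.21 and 10.40 at 24 hours, 10.84, 10.96 and 10.83 at 48 hours, and 11.15, 11.09 and 11.02 at 72 hours. Every later array was above every array of 0 hours, and at 0 hours the signals were near the limit for dim probe sets. The log2 FC against 0 hours was 3.00 at 6 hours (SE 0.128, q = 3.54e-12), 2.83 at 24 hours (q = 1.04e-11), 3.52 at 48 hours (q = 1.98e-13) and 3.73 at 72 hours (q = 4.69e-14). At 72 hours this is a 13.2-fold higher signal. These 4 calls held under every alternative run and without any single array.

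*Tnfrsf12a* (Fn14), a receptor known for its rapid induction by growth factors, had 9.21, 10.96 and 8.42 at 0 hours and 12.65, 12.11 and 12.11 at 6 hours. Its signals at 24 hours were 10.72, 11.24 and 11.06, at 48 hours 10.90, 11.36 and 11, and at 72 hours 10.89, 11.54 and 11.03. The highest of the 5 times was 6 hours, and from 24 hours on the arrays overlapped with replicate 2 of 0 hours. The log2 FC was 2.76 at 6 hours (SE 0.403, q = 0.000111), 1.48 at 24 hours (q = 0.01), 1.56 at 48 hours (q = 0.0077) and 1.63 at 72 hours (q = 0.00339). All 4 calls were lost in a fit of only the arrays compared (q from 0.0965 to 0.2) and without all arrays numbered 1, and the 24 hours call also without untreated replicate 2 of 24 hours (q = 0.0617). Leaving out 1 array of 0 hours moved the values to between 0.92 (without replicate 3) and 2.19 (without replicate 2) at 24 hours, 1.0 and 2.27 at 48 hours, and 1.07 and 2.34 at 72 hours, all still called. *Tnfsf12*, which encodes the ligand TWEAK, is on the probe set outside the rule.

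*Tnfrsf1a* had 9.34, 10.61 and 9.73 at 0 hours, against which its signals of 10.89, 10.84 and 10.97 at 48 hours and of 10.86, 10.84 and 10.77 at 72 hours were higher by 1.0 (SE 0.221, q = 0.00236) and 0.93 (SE 0.221, q = 0.00255). Its values at 6 and 24 hours were 0.15 (q = 0.634) and 0.53 (q = 0.0678), and without replicate 2 of 0 hours the 24 hours value was 0.88 and passed the test (q = 0.00112). It also passed without dim probe sets (q = 0.0422) and with averaged probe sets of a gene (q = 0.0461). Both calls were lost in a fit of only the arrays compared (q = 0.128 and 0.0744) and without all arrays numbered 1 (q = 0.0943 and 0.119).

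Another 3 receptors passed the test at a single time. *Tnfrsf13c*, the BAFF receptor of B cells, had 9.07, 9.36 and 9.28 at 6 hours, against 8.92, 8.65 and 8.38 at 0 hours (log2 FC 0.59, SE 0.134, q = 0.00675). Its ligand BAFF (*Tnfsf13b*) was dim and not called at any time. *Tnfrsf21* had 12.84, 12.98 and 12.92 at 24 hours, against 12.63, 12.51 and 12.40 at 0 hours (0.40, SE 0.109, q = 0.0105). *Tnfrsf18* had 7.10, 6.84 and 7.03 at 6 hours, against 7.52, 7.31 and 7.23 at 0 hours (−0.36, SE 0.1, q = 0.0248). The groups did not overlap in any of these 3 cases. Of all probe sets, 9.47% lay apart upward and 5.72% downward at 6 hours, and 13.2% upward at 24 hours. A fit of only the arrays compared lost the 3 calls. The *Tnfrsf21* call was also lost without untreated replicate 2 of 24 hours (q = 0.0642), and that of *Tnfrsf18* without replicate 1 of 0 hours (q = 0.101) or replicate 2 (q = 0.147) or 3 (q = 0.0691) of 6 hours.

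*Tnfrsf19* (TROY), a receptor found in the developing nervous system, had 9.82, 10.29 and 10.04 at 0 hours, 9.08, 9.46 and 9.20 at 6 hours, and 9.10, 9.15 and 9.22 at 72 hours. All 12 later arrays were below all 3 of 0 hours. The log2 FC was −0.80 at 6 hours (SE 0.14, q = 0.000709), −0.84 at 24 hours (q = 0.000205), −0.86 at 48 hours (q = 0.000154) and −0.89 at 72 hours (q = 5.54e-05), and the 3 calls from 24 hours on held under every alternative run. The 6 hours call was lost in a fit of only the arrays compared (q = 0.12). The ligand *Eda* had 8.66, 7.90 and 8.60 at 0 hours and 7.81, 7.95 and 7.84 at 72 hours, where replicate 2 of 0 hours lay within the later range. Its log2 FC was −0.46 at 24 hours (SE 0.175, q = 0.0497) and −0.52 at 72 hours (SE 0.175, q = 0.0218), and −0.42 (q = 0.14) and −0.46 (q = 0.0581) at 6 and 48 hours. The 24 hours call was lost without any 1 array other than replicate 2 of 0 hours and with cyclic loess (q = 0.0845), and the 72 hours call without replicate 1 or 3 of either time (q from 0.0586 to 0.114). *Tnf* had −0.31 at 24 hours (q = 0.0534), which passed the test with cyclic loess (−0.22, q = 0.0454), with averaged probe sets of a gene (q = 0.0367) and without replicate 2 of 0 hours (q = 0.0358).

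**Figure D4:**
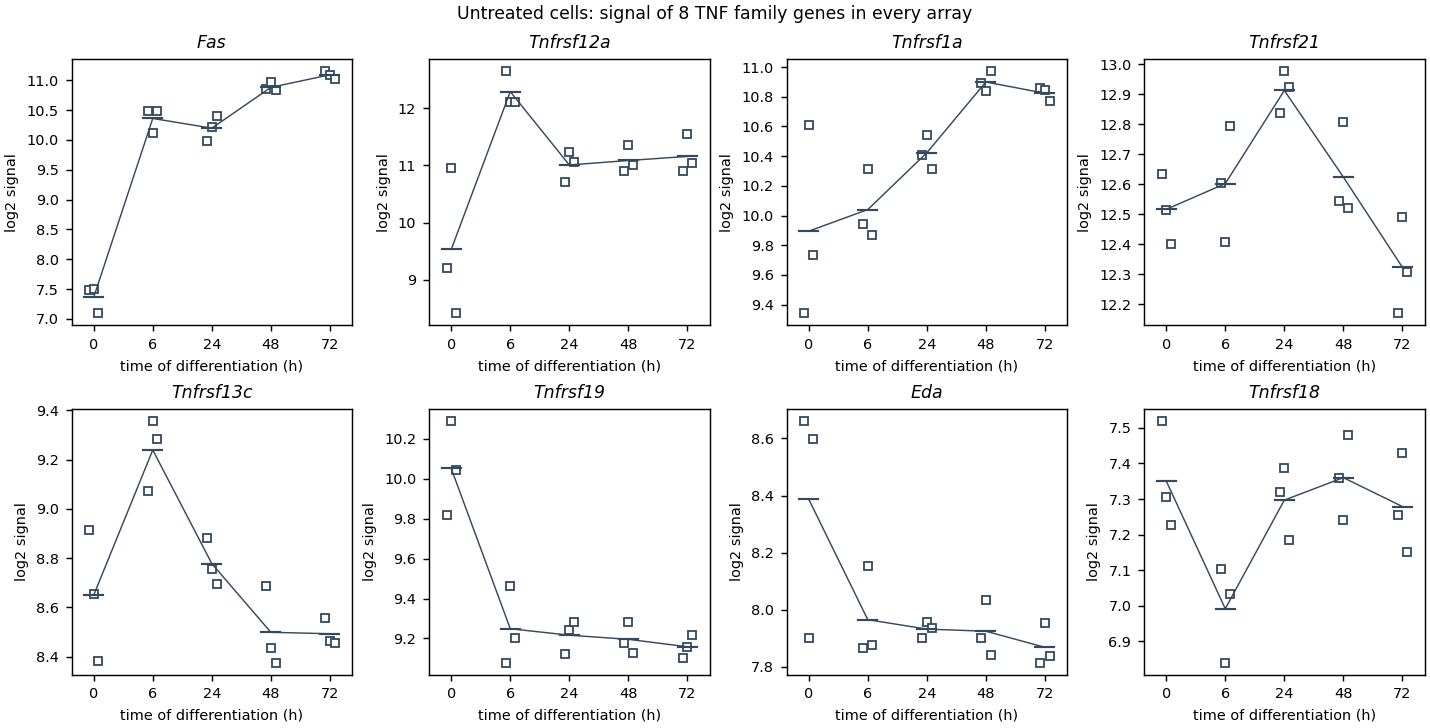
Log2 signal (y axis) of the 8 genes called in untreated cells against 0 hours, in every untreated array over the time of differentiation in hours (x axis); short lines are group means and the thin line joins them. *Fas* is at 7.10 to 7.50 at 0 hours and at 11.02 to 11.15 at 72 hours, and *Tnfrsf12a* is highest at 6 hours.

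Other markers moved in the same comparisons. *Gfap* was higher in untreated cells at 72 hours than at 0 hours by 4.54, *Acta2*, a smooth muscle actin also listed for mural cells, by 4.09, and the oligodendrocyte lineage genes *Olig1* and *Olig2* had −1.03 and −1.49. Of the 8 astrocyte markers, 4 were called higher and 0 lower at 72 hours (median log2 FC 0.38). Of 6 measured oligodendrocyte lineage markers, 0 were higher and 2 lower (median −0.18). Neural progenitor markers were called higher too, 3 of 6 (*Nes*, *Prom1* and *Vim*), and 0 lower (median 0.31). Mural or fibroblast markers had a mean signal of 7.61 to 7.70 in the arrays of untreated cells at 6 hours and of 6.77 to 7.22 at 0 hours, with 4 of their 6 genes dim. At 6 hours *Acta2* was the only one of the 6 called, and the median log2 FC of the list was 0.04. Their part in the changes of *Fas* and the other receptors was not tested. Of the 33 adaptors and effectors, 8 were higher and 4 lower at 72 hours than at 0 hours, where 12.6% and 10.2% of all probe sets were. *Traf4*, an adaptor of the developing nervous system, had −2.03, the deubiquitinase gene *Cyld* 1.03 and *Map3k5* 1.03. *Relt*, a TNF receptor relative whose symbol the rule does not take, was higher by 1.47 at 6 hours and by 0.72 at 72 hours. The protease gene *Adam10* was higher at each later time, by 1.13 at 6 hours and 0.68 at 72 hours.

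Across all 9 groups, 7 of the 43 genes had group means that spanned 1 log2 unit or more, namely *Fas* (4.01), *Tnfrsf12a* (3.09), *Tnfsf18* (2.88), *Eda2r* (1.63), *Tnfrsf1a* (1.15), *Tnfrsf19* (1.09) and *Tnfrsf10b* (1.04). A span under 0.5 was found for 27 genes, 23 of them dim. Of the 16 ligands, 13 were dim, all but *Tnfsf18*, *Eda* and *Tnfsf11*. *Tnfsf18* was above the limit only through its TNF-treated arrays, with means of 6.43 to 6.82 in the untreated groups. For dim genes a change within the background of the array would not be detectable. At 24 hours, arrays numbered 1 had the highest signal of their group for 21 of the 24 dim genes in TNF-treated cells and for 18 in untreated cells.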

How the data were processed

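RNA of 26 samples was measured on Affymetrix MoGene 1.0 ST arrays. Per the labels and the study's methods, the authors normalized the arrays by RMA with the oligo package in R 3.3.1 and deposited log2 values for 35556 probe sets; which oligo and RMA versions is not given in the sources used here. Annotation of the array design, which can be old, gives 1 symbol to 21789 probe sets, several to 1621 and none to 12146. No array pair was identical, and array correlations were 0.947 to 0.996.

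The deposited log2 values were fitted with limma 3.58.1 in R 4.3.3, with a mean for each of 9 groups (17 residual degrees of freedom), and 11 comparisons were drawn from that fit. Adjusted p-values are q-values over all probe sets, from a re-implemented qvalue smoother, and scripts were first tested on simulated data. Figures were drawn with matplotlib 3.10.9. No batch is labelled. Where separate cultures are not stated, p-values measure the spread between these samples only.

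Same-numbered arrays of TNF-treated and untreated cells at 6 hours deviated together from their group means (r = 0.674, 0.559 and 0.461 over all probe sets), each above 0.1, so the replicate number was taken as pairing them. At the other times at least 1 pair was below 0.1. The block was fitted over all 26 arrays, so its 6 hours values are not from a paired test of those arrays alone.

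The genes and lists were chosen with earlier results of these data known. Described were genes called in any comparison, TNF, the lymphotoxins and their receptors, partners of called genes and the brightest 5; *Tnfrsf9*, *Tnfsf9*, *Tnfrsf10b*, *Tnfsf10*, *Tnfrsf22*, *Tnfrsf23* and *Tnfsf4* were added after their values were seen. Alternatives were Benjamini-Hochberg adjustment, a threshold of 0.01, a fit of the compared arrays alone, the replicate block, cyclic loess, no dim probe sets, a prior with an intensity trend, averaged probe sets of a gene, and leaving out each array in turn.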

Additional observations from a re-analysis of the deposited data

How the results depend on the processing

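Cyclic loess moved 0 of the 22 counts of called genes by over 1.5 times, though *Ngfr* with TNF and *Eda* in untreated cells lost their 24 hours calls and *Tnf* in untreated cells gained one. The other settings moved between 1 and 9 of the 22. With Benjamini-Hochberg adjustment or an intensity trend, 1 gene instead of 2 was lower in untreated cells at 24 hours than at 0 hours. Averaging all probe sets of a gene, 1 gene was higher with TNF at 6 hours, and 4 and 2 were lower in untreated cells at 24 and 48 hours. Without dim probe sets, 1 was higher with TNF at 6 hours and 2 were lower in untreated cells at 48 hours. With a threshold of 0.01, 0 and 1 were higher with TNF at 24 and 48 hours, 1 was higher in untreated cells at 24 hours, and 1 was lower at 6, 24 and 72 hours. With only the arrays compared, 1 and 4 were higher with TNF at 24 and 72 hours, 1 was higher in untreated cells at each of 4 times, and 0, 1 and 1 were lower at 6, 24 and 72 hours.

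With the replicate block, 2, 6 and 3 genes were higher with TNF at 6, 24 and 72 hours, and 10, 2 and 7 were lower in untreated cells at 24, 48 and 72 hours. Outside 6 hours the number was not taken as pairing, as at least 1 pair per time had r under 0.1. Other same-numbered pairs did deviate together, with r = 0.384 and 0.471 at 24 hours and 0.309 and 0.608 at 48 hours. At 72 hours r was 0.0795 and −0.0156. The TNF-treated array of 72 hours titled replicate 2 is listed after the arrays of replicate 3. Whether its number matches untreated replicate 2 is therefore uncertain, and the block values at 72 hours rest on that number. The block added *Eda2r* at 24 hours (q = 0.00266) and 72 hours (q = 0.00849), *Tnfrsf10b* at 24, 48 and 72 hours (q = 0.00936, 0.00139 and 0.0198) and *Tnfrsf23* at 24 hours (q = 0.0408) with TNF, and *Tnfrsf1a* (q = 0.0273) and *Tnf* (q = 0.00909) in untreated cells at 24 hours among others. Without all arrays numbered 1, chosen after seeing the data, 0 were higher with TNF at 24, 48 and 72 hours, 1 was higher in untreated cells at 48 and 72 hours, and 1 was lower at 6, 24 and 72 hours; that fit has fewer samples.

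With 1 array left out, 0 genes were higher with TNF at 6 hours, 0 to 1 at 24 hours, 1 to 2 at 48 hours and 1 at 72 hours, and 0 were lower. In untreated cells 3 to 4, 1 to 4, 3 and 3 to 4 were higher at 6, 24, 48 and 72 hours, and 1 to 3, 1 to 5, 1 to 2 and 1 to 3 lower. The differences between TNF effects stayed at 0. Of the 25 called values, 7 kept their call under all settings and left-out arrays, and 0 reversed. The cause of these changes was not tested. The 2 or 3 arrays per group and the 24 dim genes limit the sensitivity.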

Other observations

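The probe set that covers *Tnfsf12* (TWEAK), *Tnfsf13* (APRIL) and their read-through transcript cannot tell these genes apart. Its log2 FC in TNF-treated over untreated cells was 0.02 at 6 hours, 0.31 at 24 hours (q = 0.149), 0.32 at 48 hours (q = 0.114) and 0.39 at 72 hours (q = 0.0581), none passing the test. In untreated cells it was lower than at 0 hours at 6 hours (−0.38, q = 0.00765), 24 hours (−0.26, q = 0.0296) and 72 hours (−0.31, q = 0.00836), and had −0.22 at 48 hours (q = 0.0697).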
